A study of Homo sapiens with 16 samples.

Results

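The genes described here are 32 genes of cholesterol and fatty acid synthesis, taken by gene symbol from a fixed list, out of 23396 genes measured in the series. Each of the 32 was present once in every one of the 4 deposited tables, so none was lost to a filter on low values. Poly(A) RNA was sequenced from U2OS, an osteosarcoma cell line that retains wild-type p53, in 4 groups of 4 libraries. Cells of the groups called siControl carried a control siRNA and those called siRFX7 an siRNA against RFX7, a winged-helix transcription factor. Within each siRNA, cells received for 24 h either 10 µM Nutlin-3a, which stabilises p53 by keeping MDM2 from binding it, or the solvent DMSO. All 16 libraries therefore came from transfected cells of a single line, with no untransfected or solvent-free group. How many different siRNAs were used against RFX7, and their sequences, are not given in the sources used here. The labels do not say that libraries of a group came from separate cultures, so p-values measure only the spread between these libraries, which may be technical.

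The tables hold the authors' comparisons of 2 groups with DESeq2 and no value of a single library. For each gene they give a base mean (normalised read counts averaged over all 8 libraries in the table), a log2 fold change with its standard error (SE), and an adjusted p. A gene is called higher or lower below at an adjusted p under 0.05 over all genes of its table.  RFX7 was at -2.42 ± 0.07 (SE) and -2.37 ± 0.07 with siRFX7 in DMSO-treated and Nutlin-3a-treated cells by the authors' deposited tables, a sign also used to settle which way those tables run. Of the osteoblast lineage markers, SPARC and COL1A1 were abundant, with base means of at least 27571 and 37048 by the authors' deposited tables. RUNX2 (at least 283) and ALPL (at least 330) were lower and COL1A2 was near the floor (at most 13.2) by the authors' deposited tables. The epithelial markers EPCAM and CDH1 were present at base means of at most 214 and 183 there, and the liver markers ALB and APOA1 were in none of the tables.

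Cholesterol is built from acetyl-CoA through mevalonate, isoprenoids and squalene, and fatty acids from acetyl-CoA through malonyl-CoA. Many genes of both routes are targets of the SREBP transcription factors (SREBF1 and SREBF2), which SCAP escorts from the endoplasmic reticulum to the Golgi when sterols are low and which INSIG proteins hold back when sterols are high. Activated p53 has been reported to lower SREBP2 activity, with the cholesterol exporter ABCA1 as a p53 target. The list does not hold every enzyme of these routes.

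Synthesis genes were read at very different levels. Normalised counts per kilobase of exon, derived for siControl cells under DMSO from the authors' deposited table and the GENCODE 29 exon lengths, were highest for FASN (5751), the fatty acid synthase, and SCD (5309), the desaturase that makes oleate. ACLY (2779), which makes cytosolic acetyl-CoA, came next on this per-kilobase scale. Among sterol genes SQLE (2171) and HMGCS1 (2138) led, close together in the order, with no spread over libraries to compare them by. At the low end stood HSD17B7 (69.3), CYP51A1 (69.2), TM7SF2 (48.7) and ABCA1 (1.41) per kilobase. ABCA1 was thus barely read, at base means between 14.1 and 27.0 by the authors' deposited tables, whereas the other 31 members were at 100 or more in each table. CYP51A1, the lanosterol demethylase, shares 79.4% of its exon length in GENCODE 29 with the gene AC000120.2 on the same strand, so its reads can be lost or split and its level is uncertain.

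With Nutlin-3a most of the synthesis genes fell slightly. In siControl cells 20 of 32 members (62.5%) were called lower and 3 higher by the authors' deposited table, where 19.6% of all genes tested were called lower and 18.3% higher. In siRFX7 cells 20 were again called lower and 3 higher, against 20.3% lower and 18.7% higher over all genes of the authors' deposited table. Since well-read genes are called more often, the share among genes whose base mean reached 100 is also given: 31.6% were lower in siControl and 31.5% in siRFX7. The median log2 fold change of the members was -0.15 in siControl and -0.20 in siRFX7, beside -0.03 and -0.03 for genes whose base mean reached 100 by the authors' deposited tables. These comparisons share no library, and 17 members (53.1%) were called lower in both, beside 17.0% of 21339 genes. Only STARD4 and ABCA1 (6.25% of the members) were called higher in both, beside 14.8% of those genes. No member had called changes of opposite sign, and TM7SF2, MSMO1, HSD17B7, SREBF2 and ACACA were called in neither.

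**Figure D1:**
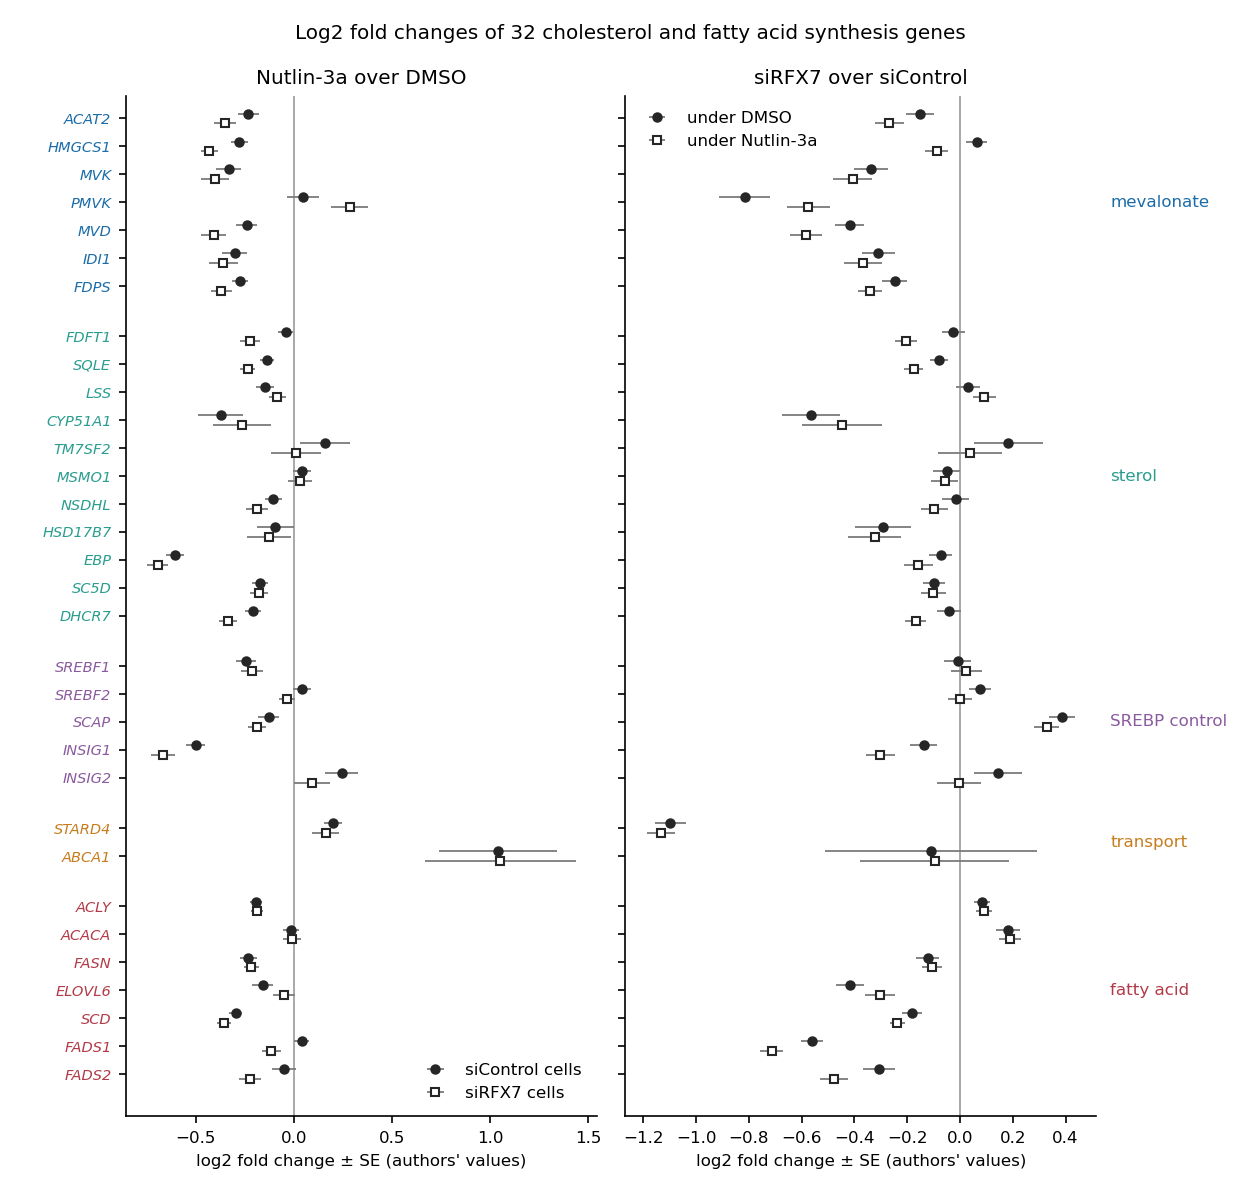
Log2 fold changes of the 32 members (x axis, log2 scale, bars ± SE, authors' values) for Nutlin-3a over DMSO (left; filled circles siControl cells, open squares siRFX7 cells) and for siRFX7 over siControl (right; filled circles under DMSO, open squares under Nutlin-3a), with rows grouped by role. On the left EBP and INSIG1 lie lowest and ABCA1 highest with wide bars; on the right STARD4 lies lowest, near -1.1, under both treatments.

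Of 7 members of the acetyl-CoA and mevalonate steps, 6 (85.7%) were called lower with Nutlin-3a in both siRNA states. Among genes whose base mean reached 100, 31.6% were lower in siControl and 31.5% in siRFX7. HMGCS1, which makes HMG-CoA, fell by 0.28 ± 0.04 (SE) on the log2 scale in siControl (adjusted p 5.42e-10) and by 0.43 ± 0.04 in siRFX7 (adjusted p 5.5e-24) by the authors' deposited tables. The others lay close together in siControl, between -0.33 ± 0.06 for mevalonate kinase (MVK) and -0.23 ± 0.05 for ACAT2, the cytosolic acetoacetyl-CoA thiolase, by the authors' deposited table. For MVD, the decarboxylase that makes isopentenyl diphosphate, the authors' deposited tables gave -0.24 ± 0.05 and -0.41 ± 0.06. The isomerase gene IDI1 was at -0.30 ± 0.06 and -0.36 ± 0.07, and the farnesyl diphosphate synthase gene FDPS at -0.27 ± 0.04 and -0.37 ± 0.05, by the authors' deposited tables. PMVK, the kinase between MVK and MVD, was the exception: 0.05 ± 0.08 in siControl (adjusted p 0.728), and a rise of 0.29 ± 0.09 in siRFX7 (adjusted p 0.0076), by the authors' deposited tables. FDPS has 8 named pseudogenes in GENCODE 29 with which reads can be shared, so its values are uncertain. ACAT2 shares 33.9% of its exon length with SOD2-OT1 and 26.5% with SOD2 on the opposite strand. Whether the authors counted by strand is not given in the sources used here.

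Past farnesyl diphosphate the changes were more uneven. Of the 11 genes of the squalene and sterol steps, 7 (63.6%) were called lower in siControl and 6 (54.5%) in siRFX7, and none higher. The shares called lower among genes whose base mean reached 100 were 31.6% and 31.5%. The deepest fall among all 32 was that of EBP, the sterol isomerase (chromosome X, 48521158 to 48528716 in GENCODE 29 on GRCh38), at -0.61 ± 0.05 (SE; adjusted p 1.94e-36) in siControl and -0.69 ± 0.05 (adjusted p 4.58e-37) in siRFX7 by the authors' deposited tables. That left EBP at 65.7% of its DMSO level in siControl cells. DHCR7, which makes cholesterol from 7-dehydrocholesterol, was at -0.21 ± 0.04 and -0.33 ± 0.05, and SQLE, the squalene epoxidase, at -0.14 ± 0.03 and -0.23 ± 0.04, by the authors' deposited tables. SC5D was at -0.17 ± 0.04 and -0.18 ± 0.05, and NSDHL, which removes C4 methyl groups, at -0.10 ± 0.04 and -0.19 ± 0.06, by the authors' deposited tables. The NSDHL call in siControl was marginal (adjusted p 0.049). FDFT1, the squalene synthase, was called lower in siRFX7 (-0.22 ± 0.05) and at -0.04 ± 0.04 in siControl, and the lanosterol synthase gene LSS was called lower in siControl (-0.15 ± 0.05) and at -0.08 ± 0.04 in siRFX7, by the authors' deposited tables. CYP51A1 was called lower in siControl alone, at -0.37 ± 0.11 and -0.26 ± 0.15 by the authors' deposited tables. The C4-methyl oxidase gene MSMO1, which acts after CYP51A1 and TM7SF2, was at 0.04 ± 0.04 and 0.03 ± 0.06 by the authors' deposited tables. TM7SF2 was at 0.16 ± 0.13 and 0.01 ± 0.13 by the authors' deposited tables, also without a call.

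The genes of the SREBP pathway did not move as a block. INSIG1, itself a well-known SREBP target, was lower, at -0.50 ± 0.05 (SE; adjusted p 1.16e-24) in siControl and -0.67 ± 0.06 (adjusted p 7.11e-27) in siRFX7 by the authors' deposited tables. Its relative INSIG2 was called higher in siControl (0.25 ± 0.08, adjusted p 0.0115) and was at 0.09 ± 0.09 in siRFX7 by the authors' deposited tables. SREBF1 was lower in both (-0.24 ± 0.05 and -0.21 ± 0.06) and SCAP slightly so (-0.13 ± 0.05 and -0.19 ± 0.04) by the authors' deposited tables. SREBF2 was not called, with 0.04 ± 0.04 (adjusted p 0.54) and -0.04 ± 0.04 (adjusted p 0.548) by the authors' deposited tables.

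Both transport genes rose with Nutlin-3a. ABCA1, which exports cholesterol to apolipoproteins, was at 1.04 ± 0.30 (SE; adjusted p 0.00201) in siControl and 1.05 ± 0.38 (adjusted p 0.0174) in siRFX7 by the authors' deposited tables. The implied mean counts were only 16.0 under DMSO and 33.0 under Nutlin-3a in siControl cells, and 11.4 and 23.7 in siRFX7 cells. STARD4, a soluble carrier that moves cholesterol between membranes, was at 0.20 ± 0.05 and 0.16 ± 0.07 by the authors' deposited tables, the call in siRFX7 being marginal (adjusted p 0.0493).

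Fatty acid genes fell by a similar amount where they were called, 4 of 7 in siControl and 5 of 7 in siRFX7. These are 57.1% and 71.4%, beside 31.6% and 31.5% of genes whose base mean reached 100. SCD was at -0.30 ± 0.03 (SE; adjusted p 1.25e-20) and -0.35 ± 0.04 (adjusted p 7.48e-20), and FASN at -0.23 ± 0.04 and -0.22 ± 0.04, by the authors' deposited tables. ACLY stood at -0.19 ± 0.03 in both of the authors' deposited tables. ACACA, the acetyl-CoA carboxylase that commits carbon to fatty acids, was at -0.01 ± 0.04 and -0.01 ± 0.05 there and was not called. The elongase gene ELOVL6 was called lower in siControl only (-0.16 ± 0.05, against -0.05 ± 0.06 in siRFX7) by the authors' deposited tables. The delta-5 and delta-6 desaturase genes FADS1 and FADS2 were called lower in siRFX7 only (-0.11 ± 0.05 and -0.22 ± 0.06), at 0.04 ± 0.04 and -0.05 ± 0.06 in siControl, by the authors' deposited tables.

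**Figure D2:**
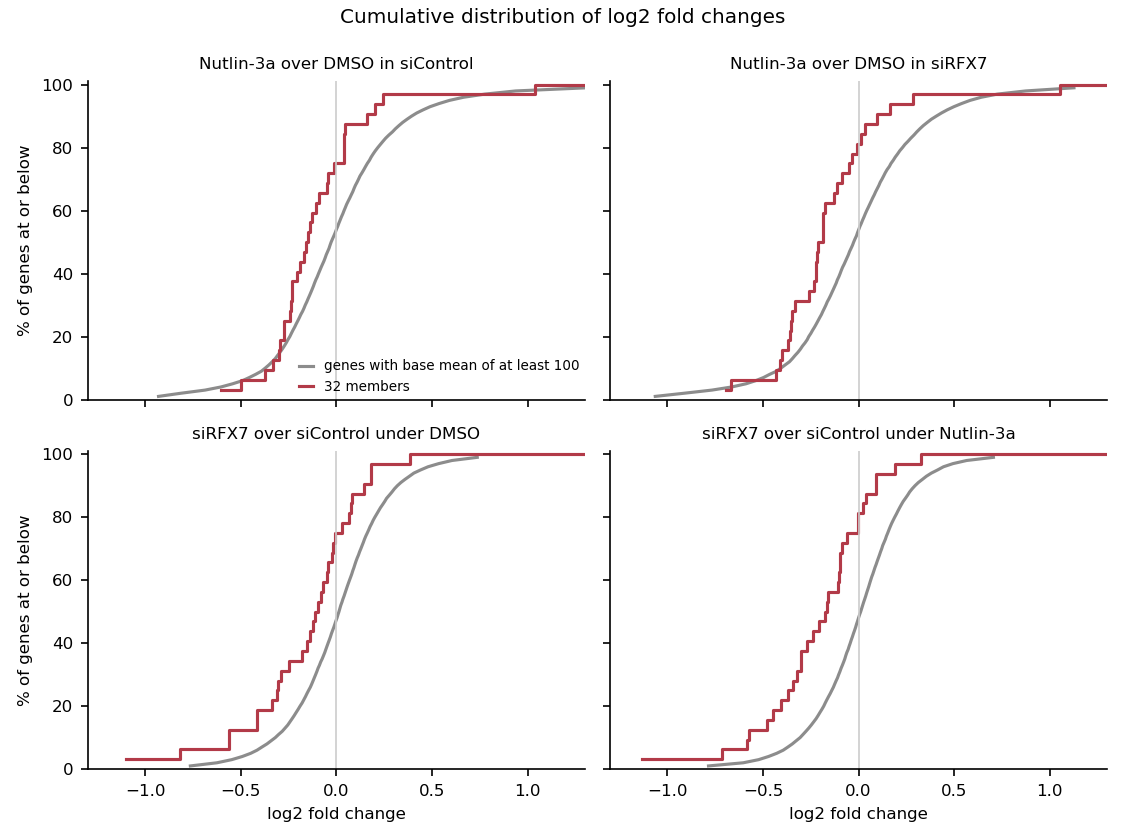
Cumulative share of genes (y axis, %) at or below each log2 fold change (x axis) in the 4 comparisons: red steps, the 32 members; grey, genes whose base mean reached 100. The red line crosses 0 at 75.0% or 81.3% of the members, against 47.6% to 54.0% of the grey genes.

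With RFX7 knocked down, many members were lower as well, and STARD4, PMVK and FADS1 by over 0.5 on the log2 scale under both treatments. CYP51A1 passed that size under DMSO only and MVD under Nutlin-3a only. Under DMSO 16 of 32 were called lower and 3 higher, where 17.5% of all genes were lower and 19.9% higher by the authors' deposited table. Under Nutlin-3a 19 were lower (59.4%) and 3 higher, against 15.4% and 17.2% of all genes by the authors' deposited table. Among genes whose base mean reached 100 the shares called lower were 22.6% and 20.6%. The median of the members was -0.10 under DMSO and -0.17 under Nutlin-3a, beside 0.01 and 0.01 for genes whose base mean reached 100. Called lower under both treatments were 15 members (46.9%), beside 11.9% of 19346 genes. SCAP, ACLY and ACACA (9.4% of the members) were called higher under both, beside 14.2% of those genes. The comparisons under DMSO and under Nutlin-3a share no library, and no member had called changes of opposite sign in them. Each siRNA comparison does share a control group with a Nutlin-3a comparison above, so their values are set side by side without a measure of likeness.

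STARD4 (chromosome 5, 111496033 to 111512590 in GENCODE 29 on GRCh38) changed most. With siRFX7 it was at -1.098 ± 0.06 (SE; adjusted p 1.8e-75) under DMSO and -1.13 ± 0.05 (adjusted p 5.83e-94) under Nutlin-3a by the authors' deposited tables. Set to 100% in siControl cells under DMSO, STARD4 stood at 46.7% in siRFX7 cells under DMSO, 115% in siControl cells under Nutlin-3a and 52.4% with both. PMVK was next under DMSO, at -0.82 ± 0.10 (adjusted p 5.08e-16), and -0.58 ± 0.08 (adjusted p 1.99e-11) under Nutlin-3a, by the authors' deposited tables. FADS1 was at -0.56 ± 0.04 (adjusted p 6.43e-41) and -0.71 ± 0.04 (adjusted p 3.12e-58), and its neighbour FADS2 at -0.31 ± 0.06 and -0.48 ± 0.05, by the authors' deposited tables. FADS1 and FADS2 lie on opposite strands of chromosome 11 (61799625 to 61829318 and 61792980 to 61867354 in GENCODE 29 on GRCh38) and share 490 bp of exon. CYP51A1 was at -0.56 ± 0.11 (adjusted p 2.08e-06) and -0.45 ± 0.15 (adjusted p 0.0122) by the authors' deposited tables, with the reservation on its reads given above.

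Sequence around these genes is shown because STARD4, FADS1 and CYP51A1 are the members whose 3′ UTR in GENCODE 29 holds the heptamer GTATCTA. That heptamer was picked from earlier results of these same tables, where it was common among genes lower with siRFX7, so it supports nothing here. It was in the 3′ UTR of 8.47% of the 13761 genes of the DMSO comparison that have one annotated. Of genes with it, 43.2% were lower with siRFX7 under DMSO and 37.4% under Nutlin-3a, against 17.4% and 15.7% of genes without it, by the authors' deposited tables. Leaving these 3 out, the counts of members called lower became 13 under DMSO and 16 under Nutlin-3a. Whether the heptamer bears on the fall of these 3 genes was not tested, and PMVK, MVD and FADS2 do not carry it. The sites are given 5′ to 3′ on the RNA strand with the heptamer in capitals, at chr5:111498707-111498735 and chr5:111498028-111498056 (STARD4, minus strand), chr11:61800985-61801013 (FADS1, minus strand) and chr7:92112922-92112950 (CYP51A1, minus strand), all on GRCh38.
STARD4 upstream site: attatctcataGTATCTAgattgatcaag
STARD4 downstream site: cccacttttaaGTATCTAattcagtgatg
FADS1 site: ctcttgttcaaGTATCTAactcttctgga
CYP51A1 site: ctgataaatatGTATCTAgttctacaagg

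Promoters were searched because RFX proteins bind sites built on the core GTTGCC. RefSeq promoters (GRCh38.p14, 250 bases before to 50 after the start) were matched by symbol for 28 of the 32. On either strand 8 of these 28 (28.6%) held GTTGCC: DHCR7, FADS1, FADS2, HMGCS1, MSMO1, PMVK, SCD and STARD4. The share was 12.2% of 35116 promoters and 16.6% of 11372 genes of the siRNA tables. Of members with the core, FADS1, FADS2, PMVK, SCD and STARD4 were called lower with siRFX7 under both treatments. Of all 28 members, with or without the core, 13 were called lower under both. Over the 11372 genes, 13.0% of genes with the core and 13.3% without it were called lower under both. The windows of the 4 genes just described with a promoter match are printed 5′ to 3′ on the gene's strand with the core, or its reverse complement GGCAAC, in capitals. HMGCS1, which was not called with siRFX7, is added for contrast. They lie at chr5:111512734-111512785 (STARD4, minus), chr1:154936744-154936823 (PMVK, minus), chr11:61816954-61817024 (FADS1, minus), chr11:61816382-61816453 (FADS2, plus) and chr5:43313489-43313568 (HMGCS1, minus).
STARD4 promoter: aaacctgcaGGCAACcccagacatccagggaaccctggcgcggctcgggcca
PMVK promoter: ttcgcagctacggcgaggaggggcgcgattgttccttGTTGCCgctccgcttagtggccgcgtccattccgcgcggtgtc
FADS1 promoter: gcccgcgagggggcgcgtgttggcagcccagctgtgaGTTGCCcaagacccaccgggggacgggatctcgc
FADS2 promoter: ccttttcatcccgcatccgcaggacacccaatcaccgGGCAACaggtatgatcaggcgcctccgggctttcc
HMGCS1 promoter: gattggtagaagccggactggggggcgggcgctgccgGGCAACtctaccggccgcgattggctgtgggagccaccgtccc

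In the same promoter windows the CCAAT box, bound by NF-Y, which acts with SREBPs at sterol genes, was found in 20 of 28 members, on either strand. CCAAT was in 34.6% of all promoters and 42.6% of the genes tested. The GC box GGGCGG was in 27 of 28, the E-box CACGTG in 5 and the sterol element core TCACNCCAC in SREBF2 alone. The GC box was in 45.0% of all promoters and 75.4% of the genes tested. The E-box was in 7.26% and 12.3%, and the sterol element core in 1.13% and 1.42%, in that order. A match describes letters in a window and not binding.

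Along the mevalonate route 6 of 7 members (85.7%) were called lower with siRFX7 under each treatment. Among genes whose base mean reached 100, 22.6% were lower under DMSO and 20.6% under Nutlin-3a. MVD was at -0.42 ± 0.05 (SE; adjusted p 6.22e-13) under DMSO and -0.59 ± 0.06 (adjusted p 3.88e-20) under Nutlin-3a, and MVK at -0.34 ± 0.06 and -0.41 ± 0.07, by the authors' deposited tables. IDI1 was at -0.31 ± 0.06 and -0.37 ± 0.07, FDPS at -0.25 ± 0.05 and -0.34 ± 0.05, and ACAT2 at -0.15 ± 0.05 and -0.27 ± 0.05, by the authors' deposited tables. HMGCS1, the most highly read of the 7 per kilobase, was not called under either treatment, at 0.06 ± 0.04 and -0.09 ± 0.04 by the authors' deposited tables. In siRFX7 cells under Nutlin-3a, MVD stood at 56.5% and MVK at 60.0% of their level in siControl cells under DMSO, and HMGCS1 at 77.7%.

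Of the 11 genes of the sterol steps, 3 (27.3%) were called lower under DMSO, near the 22.6% of genes whose base mean reached 100. Under Nutlin-3a 6 (54.5%) were lower, beside 20.6% of such genes, and none was higher under either treatment. HSD17B7, the keto-sterol reductase, was at -0.29 ± 0.10 (SE) and -0.32 ± 0.10 by the authors' deposited tables. It has 2 named pseudogenes, and reads can be shared with them. EBP, which fell most with Nutlin-3a, was at -0.07 ± 0.04 (adjusted p 0.194) with siRFX7 under DMSO and -0.16 ± 0.06 (adjusted p 0.0177) under Nutlin-3a by the authors' deposited tables. FDFT1 (-0.20 ± 0.04), SQLE (-0.18 ± 0.04) and DHCR7 (-0.17 ± 0.04) were called lower under Nutlin-3a, and were at -0.03, -0.08 and -0.04 under DMSO, by the authors' deposited tables. SC5D, the sterol desaturase, was called lower under DMSO (-0.10 ± 0.04, adjusted p 0.0459) and was at -0.10 ± 0.05 under Nutlin-3a (adjusted p 0.0804) by the authors' deposited tables. TM7SF2, MSMO1, NSDHL and LSS were called under neither treatment. TM7SF2, a sterol reductase read at low levels, was at 0.18 ± 0.13 under DMSO, the highest value of this role there, and 0.04 ± 0.12 under Nutlin-3a by the authors' deposited tables.

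SCAP was called higher, unlike most members, at 0.39 ± 0.05 (SE; adjusted p 5.05e-14) under DMSO and 0.33 ± 0.05 (adjusted p 1.08e-10) under Nutlin-3a by the authors' deposited tables. INSIG1 was lower, at -0.14 ± 0.05 and -0.30 ± 0.06 by the authors' deposited tables. For SREBF1 the authors' deposited tables gave -0.01 ± 0.05 and 0.02 ± 0.06, and for SREBF2 0.07 ± 0.04 and -0.00 ± 0.04, none of them called. INSIG2 (0.14 ± 0.09 and -0.00 ± 0.09) and ABCA1 (-0.11 ± 0.40 and -0.10 ± 0.28) were not called by the authors' deposited tables. The SE of ABCA1 leaves even a change of 0.5 on the log2 scale beyond detection.

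With siRFX7 each of the 7 fatty acid genes was called under both treatments, 5 lower (71.4%) and 2 higher (28.6%). Among genes whose base mean reached 100, 22.6% were lower and 27.1% higher under DMSO, and 20.6% and 24.6% under Nutlin-3a. The share called higher was thus near that of such genes. ELOVL6 was at -0.42 ± 0.05 (SE; adjusted p 7.23e-14) and -0.30 ± 0.06, SCD at -0.18 ± 0.04 and -0.24 ± 0.03, and FASN at -0.12 ± 0.04 and -0.11 ± 0.04, by the authors' deposited tables. The entry enzymes went the other way by small amounts, ACACA at 0.18 ± 0.05 and 0.19 ± 0.04 and ACLY at 0.08 ± 0.03 and 0.09 ± 0.03, by the authors' deposited tables. SCD and FADS2 each have 1 named pseudogene. In bulk RNA, fewer cells expressing a gene and less RNA per cell cannot be told apart.

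Levels in the other groups are given with siControl cells under DMSO as 100%. PMVK stood at 103% with Nutlin-3a alone, 56.8% with siRFX7 alone and 69.3% with both. FADS1 gave 103%, 67.8% and 62.7% in that order, so both genes were low wherever siRFX7 was present. EBP gave 65.7%, 95.1% and 58.9%, and INSIG1 70.7%, 90.9% and 57.4%, low wherever Nutlin-3a was present. SCD (81.4%, 88.2% and 69.0%) and MVD (84.7%, 74.9% and 56.5%) were lower with both than with either, as were EBP, INSIG1 and FADS1. SREBF2 stayed between 103% and 105% in the 3 groups, and SCAP was at 91.5%, 131% and 115%. These levels are computed from group means and carry no error of their own.

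**Figure D3:**
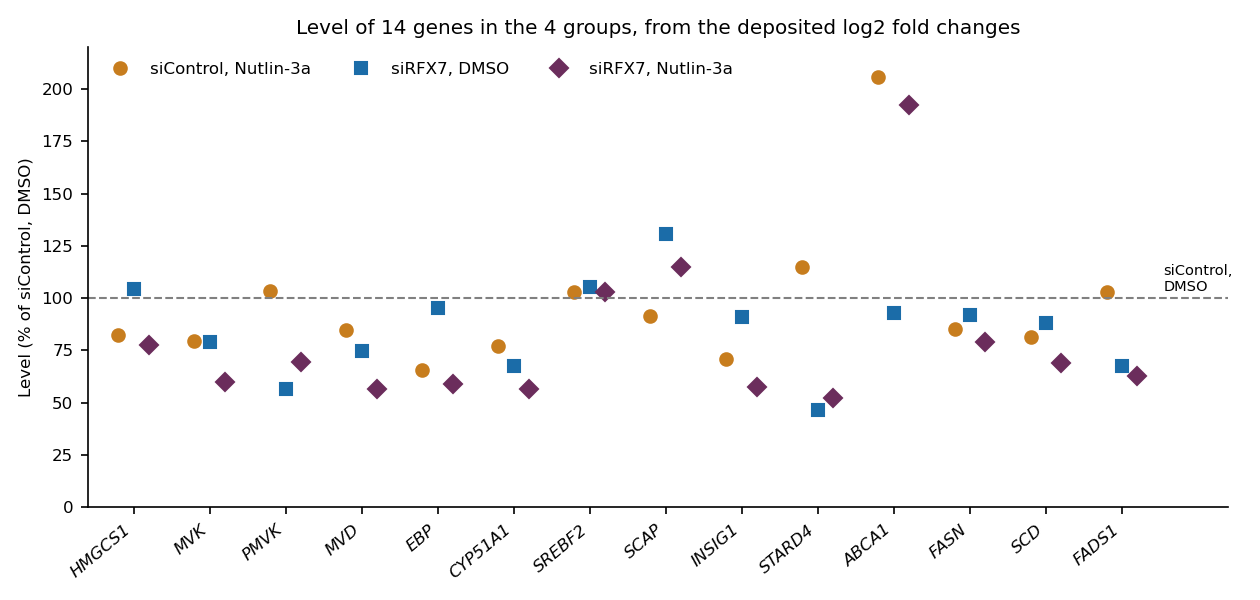
Level of 14 members (y axis, % of siControl cells under DMSO, dashed line at 100%) in the other 3 groups, computed from the deposited log2 fold changes without an error: circles, siControl with Nutlin-3a; squares, siRFX7 with DMSO; diamonds, siRFX7 with Nutlin-3a. STARD4 and PMVK lie low where siRFX7 was present, EBP and INSIG1 lie low where Nutlin-3a was present, and MVD (56.5%) and MVK (60.0%) lie lower with both than with either alone.

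Whether the Nutlin-3a response of these genes depended on RFX7 was tested as the response in siRFX7 minus that in siControl. By a two-sided normal test on the DESeq2 values with Benjamini-Hochberg adjustment over 21339 genes, 0 of the 32 members differed, where 0.937% of all genes did. The smallest adjusted p was 0.214, for FDFT1 (-0.18 ± 0.06 SE). At an unadjusted p under 0.05 there were 7 of the 32 members, all with a more negative log2 response in siRFX7. This does not mean a weaker response: HMGCS1 was at -0.28 in siControl and -0.43 in siRFX7, and FADS1 at 0.04 and -0.11. A more negative response at that limit was found for 3.85% of all genes, and for 741 of the 13216 genes whose base mean reached 100. The 7 members were FDFT1, HMGCS1 (-0.15 ± 0.06), FADS1 (-0.15 ± 0.06), FADS2 (-0.17 ± 0.08), INSIG1 (-0.17 ± 0.08), MVD (-0.17 ± 0.08) and DHCR7 (-0.13 ± 0.06). Of the 32 differences 23 were below 0, and their median was -0.06, beside -0.00 for all genes. PMVK had the highest difference, 0.24 ± 0.13, with a 95% interval from -0.01 to 0.48.

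A missed threshold does not show that the responses were alike. At the median SE of the members, 0.07, a difference had to reach 0.26 on the log2 scale to be called. For 31 of the 32 the 95% interval lay within 0.5 of 0, and the exception was ABCA1, whose interval ran from -0.94 to 0.97. The intervals were -0.23 to 0.05 for EBP, -0.20 to 0.13 for STARD4 and -0.20 to 0.04 for SREBF2.

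**Figure D4:**
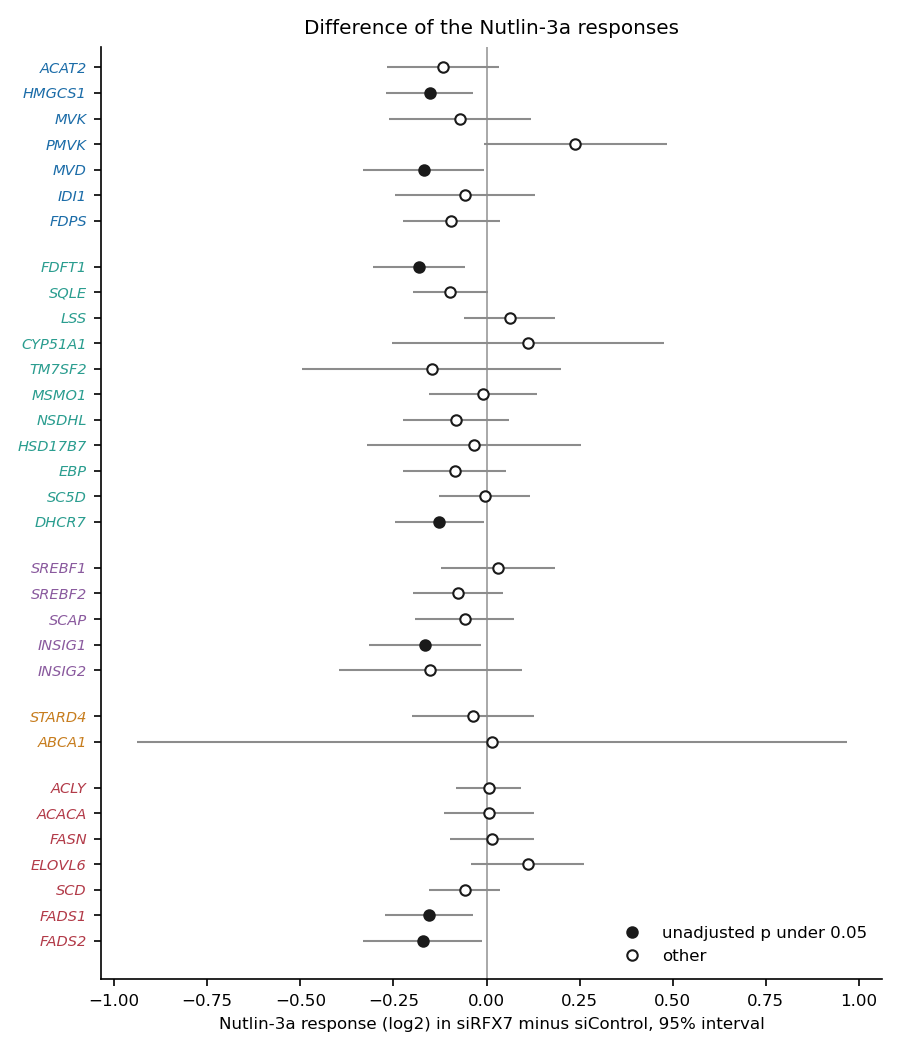
Nutlin-3a response in siRFX7 minus that in siControl (x axis, log2 scale) for the 32 members, with 95% intervals; filled points had an unadjusted p under 0.05. The 7 filled points lie between -0.18 and -0.13, all below 0, and the interval of ABCA1 is the widest.

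Other genes around these routes came from lists by role, set beside the shares of well-read genes (base mean of 100 or more) that were called. With Nutlin-3a those shares were 31.6% lower and 24.7% higher in siControl, and 31.5% and 24.8% in siRFX7. Among 12 genes of SREBP processing and partner factors, 6 were called lower and 2 higher in siControl cells given Nutlin-3a, and 8 lower and 2 higher in siRFX7, by the authors' deposited tables. PGRMC1, a membrane haem protein that binds INSIG1 and SCAP, was at -0.60 ± 0.04 (SE) and -0.53 ± 0.04, and ERLIN1, an endoplasmic reticulum scaffold, at -0.48 ± 0.04 and -0.53 ± 0.04, by the authors' deposited tables. NFYB, a subunit of NF-Y, was at -0.51 ± 0.07 and -0.505 ± 0.09 by the authors' deposited tables. With siRFX7, 4 of the 12 (33.3%) were higher and 2 (16.7%) lower under DMSO, near the 27.1% and 22.6% of well-read genes. Under Nutlin-3a 2 (16.7%) were higher and 1 (8.33%) lower, beside 24.6% and 20.6% of well-read genes. MBTPS1, the site-1 protease that makes the initial cut in SREBPs, rose by 0.77 ± 0.04 (adjusted p 5.59e-79) under DMSO and 0.68 ± 0.04 (adjusted p 4.5e-67) under Nutlin-3a by the authors' deposited tables. SCAP and MBTPS1 were thus higher in siRFX7 cells while MVD, MVK, INSIG1 and SCD were lower. Neither side was uniform: ACLY and ACACA were called higher, and HMGCS1 and LSS were called under neither treatment. Of the 12, ERLIN2 had the lowest value, -0.48 under DMSO and -0.26 under Nutlin-3a, by the authors' deposited tables.

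Among 15 genes of cholesterol trafficking, esterification and LXR signalling, 5 (33.3%) were called higher and 1 (6.67%) lower in siControl cells given Nutlin-3a, and 4 (26.7%) higher and 1 lower in siRFX7. The shares called higher were near those of well-read genes, 24.7% and 24.8%. ABCG1, a sterol exporter related to ABCA1, rose by 1.29 ± 0.15 (SE) and 0.87 ± 0.22, and LIPA, the lysosomal acid lipase, by 0.61 ± 0.05 and 0.67 ± 0.06, by the authors' deposited tables. TMEM97, a sterol-regulated membrane protein, was at -0.65 ± 0.04 and -0.82 ± 0.04 by the authors' deposited tables. With siRFX7, 5 were higher under each treatment, and 4 under DMSO and 3 under Nutlin-3a were lower. Under DMSO these are 33.3% and 26.7%, near the 27.1% and 22.6% of well-read genes. Under Nutlin-3a they are 33.3% and 20.0%, beside 24.6% and 20.6% of well-read genes. ABCG1 was at -0.62 ± 0.21 (adjusted p 0.00965) under DMSO and -1.05 ± 0.16 (adjusted p 1.25e-09) under Nutlin-3a by the authors' deposited tables. Its Nutlin-3a response did not differ by the test (-0.42 ± 0.27, adjusted p 0.954).

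Of 21 further fatty acid and glycerolipid genes, 6 were called higher and 7 lower in siControl cells given Nutlin-3a, and 7 higher and 5 lower in siRFX7. In siControl these are 28.6% and 33.3%, near the 24.7% and 31.6% of well-read genes, so the counts are about those of the background. FADS3, a relative of FADS1 and FADS2, rose by 0.74 ± 0.05 (SE) and 0.81 ± 0.05, and ACSS2, the cytosolic acetyl-CoA synthetase, by 0.496 ± 0.07 and 0.67 ± 0.08, by the authors' deposited tables. With siRFX7, 7 were higher and 7 lower under DMSO, and 6 higher and 3 lower under Nutlin-3a. Under DMSO these are 33.3% each, beside 27.1% higher and 22.6% lower among well-read genes. Under Nutlin-3a they are 28.6% and 14.3%, beside 24.6% and 20.6%. The list's medians were -0.00 and -0.02 under DMSO and Nutlin-3a.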

How the data were processed

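Of 16 libraries, only 4 tables of the authors' comparisons were used, without values for individual libraries. Per the submitters' processing notes, featureCounts 1.6.5, DESeq2 1.20.0 and the build hg38 were used; the aligner, annotation and strand setting are not given in the sources used here. The deposited base mean is a signal (mean normalised count), the deposited log2 fold changes and SEs are the authors', the deposited adjusted p-values gave the calls, and the deposited Wald score and unadjusted p-values served for checks. Table direction was settled from the signs of RFX7, CDKN1A and MDM2 and from the agreement of both differences over 19344 genes (SD of the gap 0.00291, against 0.514 with a pair inverted). The fall of RFX7 with siRFX7 and the rise of CDKN1A and MDM2 with Nutlin-3a are thus no result. Differences of log2 fold changes were tested with SciPy 1.17.1 (SE from summed squares, two-sided normal p, Benjamini-Hochberg) over 21339 genes, a step tried on simulated data. There 36% of changes of 0.25 and 80% of changes of 0.5 were recovered, with 6.45% false calls. The simulated noise was drawn from the same SEs, so it cannot check whether those SEs hold. Group levels follow from base mean and log2 fold change, and exon lengths, positions and 3′ UTRs from GENCODE 29. Members, roles, lists and tests were chosen with earlier results of these data known. Members were given in full by this rule: a called size of at least 0.5, or the extreme of a role; genes of other lists by a called size of at least 0.5, at most 3 higher and 3 lower per list and table. A gene of the other lists that this rule names is not reported here. Alternatives were a threshold of 0.01, a base mean of at least 100, centring, a size of at least 0.25 and the other pair of tables.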

Additional observations from a re-analysis of the deposited data

Results flagged for a closer look

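By the test of the difference itself, none of the 32 members and none of the other listed genes passed the threshold for a response to Nutlin-3a that depended on the siRNA. Among the genes used to check the labels, CDKN1A, the p21 gene, did: it rose by 3.24 in siControl and 2.98 in siRFX7 on the log2 scale by the authors' deposited tables, a difference of -0.263 ± 0.05 (SE; adjusted p 0.000305, two-sided normal test on the authors' DESeq2 values with Benjamini-Hochberg adjustment). CDKN1A was higher with siRFX7 under both treatments, by 0.60 under DMSO and 0.33 under Nutlin-3a in those deposited tables. That CDKN1A rose with Nutlin-3a was used to settle which way the comparisons run, so the direction of that rise is no result.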

How the results depend on the processing

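No paired analysis was possible because the tables hold no value of a single library; leaving out each replicate was not run for the same reason. The counts moved most when a log2 size of 0.25 or more was required: with Nutlin-3a, 8 members lower and 1 higher in siControl and 10 lower and 2 higher in siRFX7, and with siRFX7, under DMSO 10 lower and 1 higher, under Nutlin-3a 13 and 1. At an adjusted p under 0.01, 16 single calls were lost: with Nutlin-3a, 18 members were lower and 2 higher in siControl and 19 lower and 1 higher in siRFX7, and with siRFX7, under DMSO 11 lower and 2 higher, under Nutlin-3a 16 and 2. The share of all genes passing either of these limits is not given here, so these counts have no background beside them. With either pair of tables, 0 differences were called. Centring on the median turned the sign of 2 uncalled values, both of ACACA with Nutlin-3a (0.0134 in siControl and 0.0175 in siRFX7), and ended 4 calls: NSDHL and SCAP in siControl, FADS1 in siRFX7, and ACLY with siRFX7 under DMSO. It added 2, SQLE under DMSO and SC5D under Nutlin-3a with siRFX7. The count without the 3 genes that carry the heptamer was chosen after seeing the data. Low counts limit ABCA1.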

Other observations

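Of 13 other genes of isoprenoid use, which attach lipids to proteins or build ubiquinone and dolichol, 6 were called lower and 3 higher with Nutlin-3a in each siRNA state by the authors' deposited tables. These are 46.2% and 23.1%, beside 31.6% and 24.7% of genes whose base mean reached 100 in siControl. FNTB, the farnesyltransferase beta subunit, was at -0.51 ± 0.05 (SE) in siControl and -0.62 ± 0.06 in siRFX7, and ICMT, which methylates prenylated proteins, at -0.51 ± 0.04 and -0.57 ± 0.04, by the authors' deposited tables.

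With siRFX7, 5 of the 13 (38.5%) were higher and 3 (23.1%) lower under DMSO, and 5 higher and 2 lower under Nutlin-3a, by the authors' deposited tables. Among genes whose base mean reached 100, 27.1% were higher and 22.6% lower under DMSO, and 24.6% and 20.6% under Nutlin-3a. FNTB was at 0.41 ± 0.05 (SE) and 0.30 ± 0.06, and PDSS1, which makes the ubiquinone side chain, at 0.45 ± 0.08 and 0.47 ± 0.09, by the authors' deposited tables.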
